A study of Mus musculus with 2 samples.

Results

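The genes described here are 9 complement genes, taken by name from the 34745 genes of a count table: C1qa, C1qb, C1qc, C1ra and C2 of the classical pathway, Cfb of the alternative pathway, C3, on which all pathways converge, and the receptor genes C3ar1 and C5ar1. All 9 were found in the table, and all 9 passed the filter on low values, which 15240 genes passed. RNA came from mouse ear skin, with 1 specimen labelled KAT8 cKO, a conditional knockout of the histone acetyltransferase KAT8, and 1 labelled WT. Both had received 30 mg of 5% imiquimod cream on each ear daily for 3 days, and ears were taken on day 4. Imiquimod activates the receptor TLR7, and its repeated use on mouse skin gives a psoriasis-like inflammation. The promoter or cell type of the knockout, and the sex, age, strain and number of animals behind a library, are not stated in these sources, and no untreated skin was analysed.

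Complement is a cascade of proteases and opsonins. In the classical pathway the recognition protein C1q, built from the products of C1qa, C1qb and C1qc, binds antibody or damaged surfaces and activates the proteases C1r and C1s, which cleave C4 and C2 into a C3-cleaving enzyme. The alternative pathway builds its own C3-cleaving enzyme from C3b and factor B, after factor D has cut factor B, and properdin stabilises it. Cleavage of C3 and C5 releases C3a and C5a, which act on myeloid cells through the receptors encoded by C3ar1 and C5ar1. Much of plasma complement is made in the liver, but tissue macrophages are a main source of C1q, and fibroblasts and keratinocytes also make complement components.

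The library labelled KAT8 cKO, called below the cKO-labelled library, held 13727524 counts, and that labelled WT, the WT-labelled library, held 12179608 counts. Kat8 itself was not lower in the cKO-labelled library, with 351 counts there and 219 in the WT-labelled library. After scaling it was higher, at a ratio of 1.27 (95% interval of counting error 1.07 to 1.51). The loss that the label names was therefore not seen. Counts over the whole gene in bulk skin could miss a loss confined to some exons or cell types. Xist had 6 counts in cKO-labelled and 11891 counts in WT-labelled skin, and Eif2s3y, on the Y chromosome, 838 counts in cKO-labelled and 0 in WT-labelled skin, so that sex and genotype label cannot be told apart. The skin markers Krt5, Krt14, Krt1, Krt10, Col1a1 and Col3a1 were all abundant in both libraries, at 419 or more counts per 1000000 scaled counts (CPM). Hepatocyte markers were near 0, with 17 counts in cKO-labelled and 11 counts in WT-labelled skin over 5 genes and both Apob and Fgb at 0 in both libraries. Markers of other tissue differed strongly between the specimens. Muscle markers summed to 2375 CPM in cKO-labelled and 12497 CPM in WT-labelled skin, with 6 of 6 genes 2-fold lower, and red cell markers to 8.34 CPM in cKO-labelled and 162 CPM in WT-labelled skin, with 4 of 4 lower. Sebaceous gland markers were 13.6-fold higher, at 2598 CPM in cKO-labelled and 191 CPM in WT-labelled skin, with 5 of 5 genes past 2-fold, and T cell markers were higher, at 26.3 CPM in cKO-labelled and 9.72 CPM in WT-labelled skin, with 3 of 5 past 2-fold. Their part in the complement values was not tested. With 1 library per label there is no replicate, no test and no p-value. Intervals below are exact 95% intervals that cover counting error only, and every difference describes these 2 libraries.

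Across the 9 genes, the C1q chains, C3 and C5ar1 were lower in the cKO-labelled library, C1ra, C2 and Cfb were somewhat higher, and C3ar1 was close to equal. C1qc, C3 and C5ar1 were at least 2-fold lower, counted on log2 ratios of CPM + 1, and no gene was 2-fold higher. Among all 15240 measured genes, 8.63% were at least 2-fold lower and 4.56% at least 2-fold higher. By a 1.5-fold rule, 5 of the 9 were lower and none higher, beside 17.2% and 12.9% of measured genes. The median log2 ratio of the 9 genes was -0.78, beside 0.01 over all measured genes. Scaling by library totals in place of trimmed means of M values (TMM) moved the median of all genes to 0.16 and the split of all genes past 2-fold to 964 higher and 1056 lower, beside 695 and 1315. With that scaling C1qc was no longer past 2-fold, at a log2 ratio of -0.96.

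**Figure D1:**
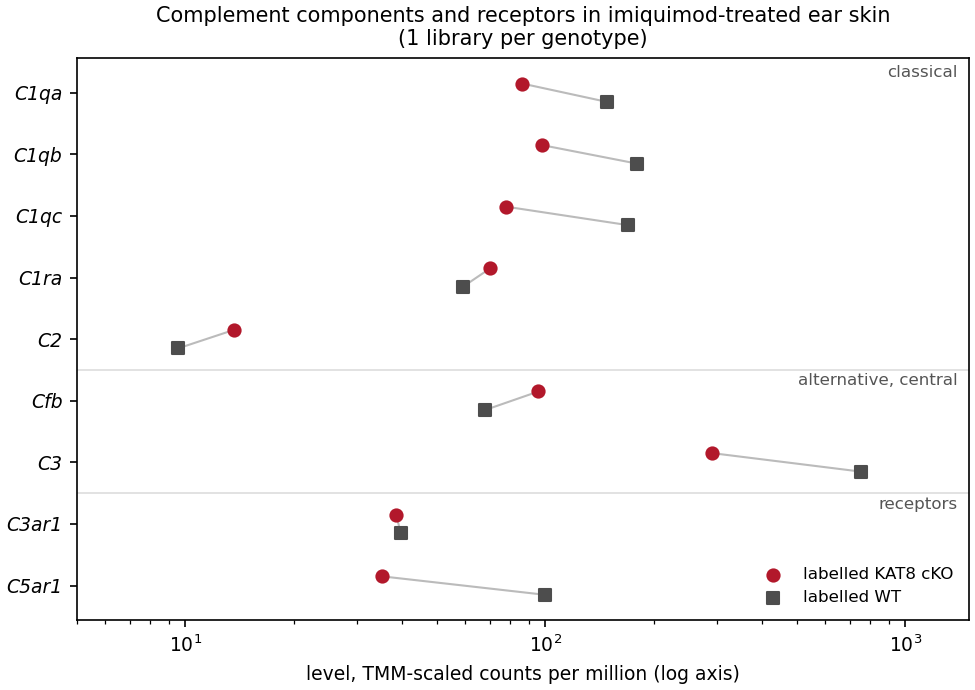
Level of each complement gene in TMM-scaled CPM on a log axis, with circles for the library labelled KAT8 cKO and squares for the library labelled WT, 1 library each. C3 lies at 290.2 CPM in cKO-labelled and 751 CPM in WT-labelled skin and C5ar1 at 35.1 CPM in cKO-labelled and 99.6 CPM in WT-labelled skin, while the points of C3ar1, at 38.5 CPM in cKO-labelled and 39.7 CPM in WT-labelled skin, nearly coincide.

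The 3 C1q genes lie side by side on the minus strand of chromosome 4 (GRCm38), with C1qb at 136880129 to 136886187, C1qc at 136889804 to 136893065 and C1qa at 136895917 to 136898803, and none of their exons overlaps another gene of the table. Stretches just before the annotated starts of C1qb and C1qc are shown because these neighbours differed in the same direction. They are read from RefSeq promoter windows on GRCm38.p6, 5′ to 3′ on the minus strand, chr4:136886201-136886350 for C1qb and chr4:136893066-136893164 for C1qc. Capitals mark the letters GAGGAA or their reverse complement, a core recognised by the myeloid factor PU.1.
C1qb: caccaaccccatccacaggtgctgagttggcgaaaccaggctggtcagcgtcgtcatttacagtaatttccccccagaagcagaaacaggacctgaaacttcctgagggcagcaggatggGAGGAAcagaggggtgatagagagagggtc
C1qc: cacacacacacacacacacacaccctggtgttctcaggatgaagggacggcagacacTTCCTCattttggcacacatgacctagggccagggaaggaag
These 6 letters stood in 28.3% of all 32851 promoter windows, each from 250 bases before to 50 after a start, on either strand, so their presence is a description and not a site, and the C1ra window held them too. Windows were found for 6 of the 9 genes, and C1qa, C2 and Cfb are named only.

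C1qa, which encodes the A chain, had 1250 counts (86.1 CPM) in the cKO-labelled library and 1713 counts (149 CPM) in the WT-labelled library, and was 1.73-fold lower (interval 1.60 to 1.86). C1qb, for the B chain, had 1421 counts (97.9 CPM) in cKO-labelled and 2069 counts (180 CPM) in WT-labelled skin and was 1.83-fold lower (1.71 to 1.96). C1qc, for the C chain, had 1131 counts (77.9 CPM) in cKO-labelled and 1958 counts (170.0 CPM) in WT-labelled skin and was 2.18-fold lower (2.03 to 2.35). All 3 chains were thus lower, C1qc by more than C1qa beyond counting error. C1qc made up 29.7% of C1q counts (interval 28.3 to 31.2) in the cKO-labelled library and 34.1% (32.9 to 35.4) in the WT-labelled library, and C1qa made up 32.9% (31.4 to 34.4) in the cKO-labelled and 29.8% (28.7 to 31.0) in the WT-labelled library. The share of C1qb was 37.4% in the cKO-labelled and 36.0% in the WT-labelled library, with overlapping intervals.

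The C1q chains were lower relative to the macrophage markers in sum, though not to each of them. The 10 markers together had 592 CPM in the cKO-labelled library and 784 CPM in the WT-labelled library, with 3 lower by 2-fold, none higher and a median log2 ratio of -0.35. In bulk skin, fewer cells of a type and less RNA per cell cannot be told apart. For each count of the marker list there were 0.442 C1q counts in the cKO-labelled library and 0.635 in the WT-labelled library, a ratio of 0.696 (interval 0.662 to 0.733). The markers did not move as one. Csf1r, the receptor for the macrophage growth factor CSF-1, had 118 CPM in cKO-labelled and 108 CPM in WT-labelled skin, and Adgre1, which encodes F4/80, had 61.9 CPM in cKO-labelled and 65.5 CPM in WT-labelled skin. Cd163, a haemoglobin scavenger receptor gene, was at 31.0 CPM in cKO-labelled and 115 CPM in WT-labelled skin, and Cd68, a lysosomal glycoprotein gene, at 42.2 CPM in cKO-labelled and 85.6 CPM in WT-labelled skin. Set against Csf1r alone the C1q ratio was 0.481 (0.442 to 0.524). It was also below 1 against Adgre1, Mrc1, Mertk and Fcgr1 alone, from 0.556 (0.500 to 0.619) for Adgre1 to 0.710 (0.592 to 0.851) for Fcgr1. The interval covered 1 against Lyve1, at 0.909 (0.801 to 1.03), Cd68, at 1.07 (0.956 to 1.19), and Folr2, at 1.23 (0.996 to 1.52). Only against Cd163 was the ratio above 1 beyond counting error, at 1.94 (1.73 to 2.18). What part cell numbers had in the C1q difference was not tested.

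C1ra, which encodes the protease C1r, differed in the other direction from the C1q chains. It lies on chromosome 6 from 124512405 to 124523443 and had 1020 counts (70.3 CPM) in the cKO-labelled library and 680 counts (59.0 CPM) in the WT-labelled library, a ratio of 1.19 (1.08 to 1.31). Its near-identical copy C1rb had only 2 counts in cKO-labelled and 3 counts in WT-labelled skin, and reads that match both copies cannot be told apart. C1s1, the gene for the partner protease C1s, was at 92.6 CPM in cKO-labelled and 101 CPM in WT-labelled skin. Fibroblast markers, summed over 6 genes, were higher, at 4421 CPM in cKO-labelled and 3356 CPM in WT-labelled skin. Per fibroblast marker count in sum C1ra was close to equal, at a ratio of 0.904 (0.819 to 0.998), and C1s1 was lower, at 0.700 (0.646 to 0.758). The 6 markers did not move as one. Their ratios between libraries ran from 0.959 (0.934 to 0.985) for Dcn to 2.21 (2.13 to 2.28) for Col1a1, on both sides of that of C1ra. The direction of C1ra relative to them thus depended on the marker chosen. The part of fibroblast RNA in the C1ra value was not tested.

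C2 and Cfb encode related proteases, the catalytic parts of the classical and the alternative C3-cleaving enzymes, and are neighbours on the minus strand of chromosome 17, C2 from 34862604 to 34898265 and Cfb from 34856374 to 34862518. C2 had 198 counts (13.6 CPM) in the cKO-labelled library and 110 counts (9.55 CPM) in the WT-labelled library, a ratio of 1.43 (1.13 to 1.82). Cfb had 1388 counts (95.6 CPM) in cKO-labelled and 784 counts (68.1 CPM) in WT-labelled skin, a ratio of 1.41 (1.29 to 1.54). As counted, the pair had a similar proportion, with 7.01 Cfb counts in cKO-labelled and 7.13 Cfb counts in WT-labelled skin for each C2 count. The ratio of these was 0.984 (0.759 to 1.27). Both values and their proportion are uncertain, because the read-through gene Gm20547 spans the locus and shares 79.5% of the exon bases of Cfb. Of C2, 46.9% of exon bases are shared with Gm20547 or Zbtb12. Gm20547 was lower, at 25.0 CPM in cKO-labelled and 40.9 CPM in WT-labelled skin. Adding its counts to Cfb brought the Cfb ratio to 1.11 (1.03 to 1.19), and adding them to C2 turned the C2 ratio to 0.767 (0.681 to 0.862). The 3 genes together were at 134 CPM in cKO-labelled and 118 CPM in WT-labelled skin, a ratio of 1.13 (1.06 to 1.22).

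C3, the central opsonin and the most abundant of the 9 genes in counts, was lower in the cKO-labelled library. It lies on chromosome 17 from 57203970 to 57228136, shares no exon with another gene of the table, and had 4212 counts (290.2 CPM) in the cKO-labelled library and 8650 counts (751 CPM) in the WT-labelled library, 2.59-fold lower (2.49 to 2.69). Of all measured genes, 4.55% had a log2 ratio as low as that of C3 or lower. The 150 bases before its start (RefSeq, GRCm38.p6, chr17:57228137-57228286, minus strand) are shown because C3 parted from Cfb, with capitals for the letters TTGCNNAA of the C/EBP family, which stood in 10.8% of all windows and, besides C3, in that of C1ra.
C3: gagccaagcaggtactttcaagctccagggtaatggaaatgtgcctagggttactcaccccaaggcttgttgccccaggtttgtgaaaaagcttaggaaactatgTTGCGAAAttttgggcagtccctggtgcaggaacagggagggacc
The letters GGGANTTTC of NF-kB stood in 1.11% of all windows and GAAANNGAA of interferon-response elements in 8.56%, each searched on both strands. Neither was in the C3 window. GAAANNGAA was found once among the 6 windows, in that of C5ar1, where it stood on the reverse strand at 66 to 58 bases before the RefSeq start.

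The direction of C3 relative to marker sums depended on the cell type. Keratinocyte markers were nearly level in sum, at 26865 CPM in cKO-labelled and 26345 CPM in WT-labelled skin over 6 genes, of which Krt1 and Krt10 were 2-fold lower. That sum was mostly Krt5 and Krt14. Between libraries C3, at 0.387 (0.372 to 0.401), was lower about as much as Krt1, at 0.380 (0.372 to 0.388). Krt10, at 0.284 (0.277 to 0.291), was lower than C3. Relative to the keratinocyte sum the C3 ratio was 0.379 (0.365 to 0.393), relative to the fibroblast markers 0.293 (0.282 to 0.305) and relative to the macrophage markers 0.512 (0.488 to 0.537). It was below 1 also relative to endothelial markers, at 0.535 (0.499 to 0.574), mast cell markers, at 0.301 (0.280 to 0.323), T cell markers, at 0.143 (0.115 to 0.178), dendritic and Langerhans cell markers, at 0.139 (0.128 to 0.152), and sebaceous gland markers, at 0.0284 (0.0268 to 0.0300). The dendritic and Langerhans cell sum was mostly that of H2-Ab1. Relative to lists that were lower by more than C3 itself, C3 was higher. That ratio was 1.48 (1.41 to 1.55) for monocyte, 2.03 (1.96 to 2.11) for muscle, 2.78 (2.65 to 2.90) for neutrophil, 4.39 (4.14 to 4.65) for adipocyte and 7.53 (6.24 to 9.16) for red cell markers. The monocyte sum in WT-labelled skin was mostly Cd14, at 882 of 1325 CPM. Between libraries Cd14, at 0.185 (0.177 to 0.194), and Plac8, at 0.288 (0.256 to 0.324), were lower by more than C3. Chil3, at 0.379 (0.356 to 0.403), and Ly6c2, at 0.323 (0.277 to 0.375), had intervals that overlapped that of C3. Ccr2 was higher, at 1.51. The direction relative to monocyte markers thus depended on the marker chosen. The part of the listed cell types in the C3 value was not tested.

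Classical against alternative genes gave no single direction, because C3 and Cfb, the members of the alternative pathway's enzyme, differed in opposite directions. Per C3 count there were 0.330 Cfb counts in the cKO-labelled library and 0.0906 in the WT-labelled library, a ratio of 3.64 (3.30 to 4.00), or 2.87 (2.64 to 3.11) with Gm20547 added to Cfb. This ratio is taken within a library and needs no scaling between libraries. The 5 classical genes together gave 0.896 counts per count of C3 and Cfb in the cKO-labelled library and 0.692 in the WT-labelled library, a ratio of 1.295 (1.23 to 1.36). Set against Cfb alone the same classical sum gave a ratio of 0.434 (0.394 to 0.478), and 0.551 (0.508 to 0.598) with Gm20547 added to Cfb. The direction was therefore that of C3, which both pathways use. Within the classical genes, C1q counts per C1ra count were 3.73 in cKO-labelled and 8.44 in WT-labelled skin, a ratio of 0.442 (0.397 to 0.491). C1q and C3 parted less, with 0.903 C1q counts in cKO-labelled and 0.664 C1q counts in WT-labelled skin per C3 count and a ratio of 1.36 (1.29 to 1.44).

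**Figure D2:**
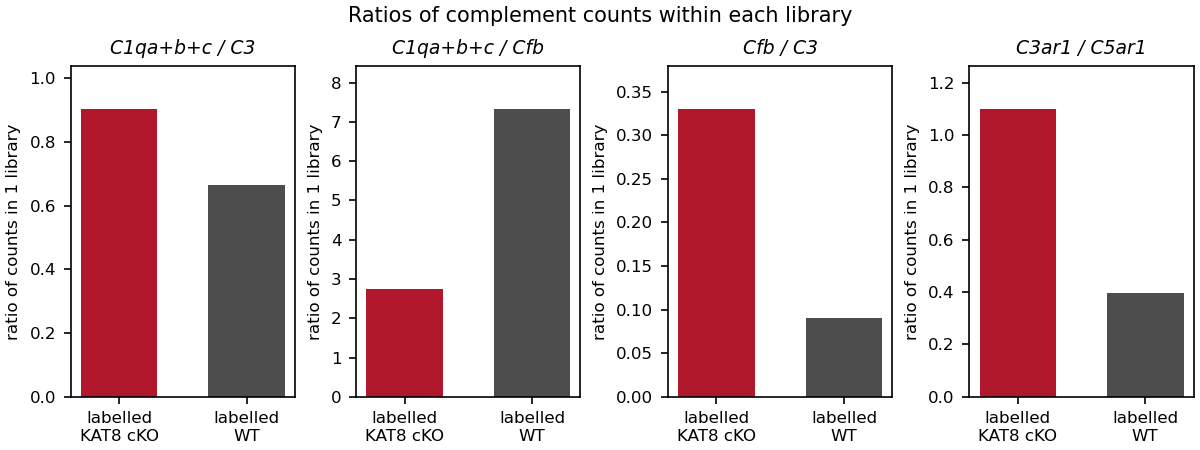
Ratios of counts between complement genes inside each library, with the library labelled KAT8 cKO left of the library labelled WT, each axis starting at 0. Cfb per C3 is 0.330 in cKO-labelled and 0.0906 in WT-labelled skin, C1q per Cfb 2.74 in cKO-labelled and 7.32 in WT-labelled skin, and C3ar1 per C5ar1 1.10 in cKO-labelled and 0.398 in WT-labelled skin.

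The anaphylatoxin receptors also parted. C5ar1, the main receptor for C5a on neutrophils and monocytes, lies on chromosome 7 from 16246743 to 16259540. It had 509 counts (35.1 CPM) in the cKO-labelled library and 1148 counts (99.6 CPM) in the WT-labelled library, 2.84-fold lower (2.56 to 3.16), the lowest ratio of the 9 genes. C3ar1, the receptor for C3a, on chromosome 6 from 122847138 to 122856161, had 559 counts (38.5 CPM) in cKO-labelled and 457 counts (39.7 CPM) in WT-labelled skin, a ratio of 0.971 (0.857 to 1.10). The sign of the C3ar1 log2 ratio changed with scaling, at -0.04 by TMM and 0.12 by library totals. For each C5ar1 count there were 1.10 C3ar1 counts in the cKO-labelled library and 0.398 in the WT-labelled library, a ratio of 2.76 (2.34 to 3.25).

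Myeloid markers moved with the receptors unevenly. Neutrophil markers were far lower, with 481 CPM in cKO-labelled and 3458 CPM in WT-labelled skin over 10 genes and 7 of 8 measured genes lower by 2-fold. None of the 10 was at 0 in either library, though Mpo and Elane were at 3 counts or fewer. Monocyte markers had 346 CPM in cKO-labelled and 1325 CPM in WT-labelled skin over 5 genes, 4 of them lower by 2-fold, while the chemokine receptor gene Ccr2 was at 35.3 CPM in cKO-labelled and 23.3 CPM in WT-labelled skin. Relative to neutrophil markers in sum C5ar1 was higher in the cKO-labelled library, at a ratio of 2.53 (2.27 to 2.82). Relative to macrophage markers in sum it was lower, at 0.466 (0.417 to 0.520), though not relative to each of them. Between libraries Cd163, at 0.271 (0.243 to 0.301), was lower by more than C5ar1. Folr2, at 0.428 (0.347 to 0.526), had an interval that overlapped that of C5ar1, and the other macrophage markers had higher ratios. The neutrophil sum was mostly Retnlg, Mmp8 and Ngp, at 1574, 633 and 535 CPM in WT-labelled skin. Between libraries C5ar1, at 0.352 (0.316 to 0.391), was lower about as much as Csf3r, at 0.327 (0.309 to 0.346). Camp was at 0.433 (0.252 to 0.728), so the value relative to neutrophil markers depended on the marker chosen. C3ar1 relative to macrophage markers in sum had a ratio of 1.29 (1.13 to 1.46), which also depended on the marker chosen. Between libraries C3ar1, at 0.971 (0.857 to 1.10), was close to Adgre1, at 0.945 (0.857 to 1.04), and Csf1r, at 1.09 (1.01 to 1.18). Cd163, Cd68 and Folr2 were at least 2-fold lower. Dendritic and Langerhans cell markers went the other way, with 203 CPM in cKO-labelled and 73.3 CPM in WT-labelled skin over 9 genes, and 5 of 7 measured genes 2-fold higher. H2-Ab1 alone gave most of that sum, at 166 CPM in cKO-labelled and 56.9 CPM in WT-labelled skin. Xcr1 and Clec9a were under the filter, at 2 and 3 counts in the cKO-labelled library and 0 in the WT-labelled library, too few to give a direction. The part of cell composition in the receptor values was not tested.

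**Figure D3:**
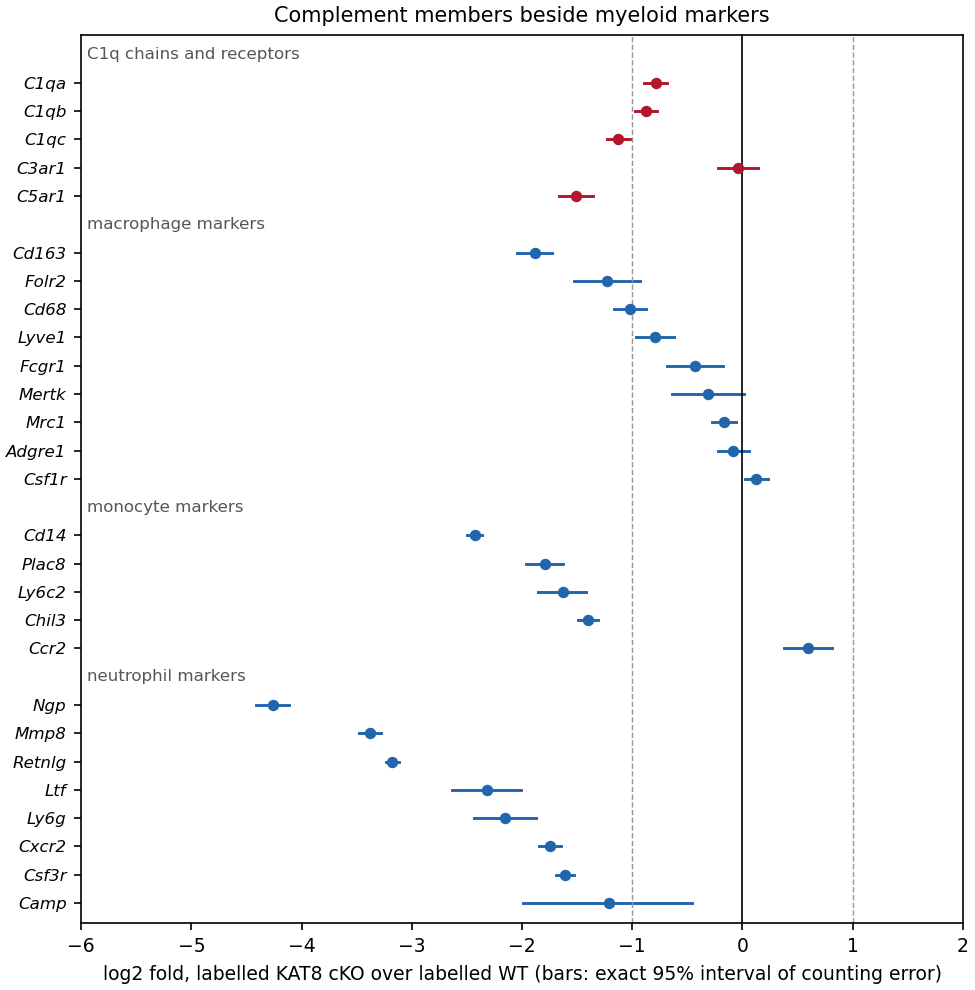
Fold of the library labelled KAT8 cKO over the library labelled WT on a log2 axis, for C1q chains and anaphylatoxin receptors in red and for measured myeloid markers in blue, with bars for the exact 95% interval of counting error and dashed lines at 2-fold. 1 macrophage marker is not drawn. Neutrophil markers are all lower, macrophage markers spread on both sides of the C1q chains, and C3ar1 lies close to 0 beside Csf1r and Adgre1.

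Per kilobase of annotated exon, the order of the 9 genes changed little. C1qb was highest in both libraries, at 90.0 CPM per kilobase in cKO-labelled and 165 CPM per kilobase in WT-labelled skin, and C2 was lowest, at 3.52 in cKO-labelled and 2.47 in WT-labelled skin. C3 was the third in the cKO-labelled library, at 56.4 CPM per kilobase, after C1qa at 82.8. In the WT-labelled library C3 at 146 and C1qa at 143 CPM per kilobase were within counting error of each other, and they were the sole neighbours in either order that were. In the cKO-labelled library C5ar1 stood below Cfb and C1ra, at 13.6, 33.9 and 23.6 CPM per kilobase. In the WT-labelled library it stood above them, at 38.8, 24.1 and 19.8 CPM per kilobase. The levels of C2 and Cfb per kilobase carry the doubt over their shared exons.

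Of 46 other complement genes 28 were measured, 9 of them at least 2-fold lower and none 2-fold higher, with a median log2 ratio of -0.63, beside 8.63% lower, 4.56% higher and a median of 0.01 over all measured genes. By library totals 8 were lower and none higher, with a median of -0.50, beside a median of 0.16 and a nearly even split of all genes, and by TMM without the 50 most abundant genes 9 were lower and 1 higher. The 9 members were not counted in this list. Among other classical and lectin genes, C4b, which encodes C4, the partner of C2, was nearly level at 319 CPM in cKO-labelled and 342 CPM in WT-labelled skin, and its near-identical copy C4a was at 2.14 CPM in cKO-labelled and 1.302 CPM in WT-labelled skin. Fcna, the gene for ficolin A, a lectin pathway recognition protein, had 12 counts in cKO-labelled and 178 counts in WT-labelled skin and was 18.7-fold lower (10.4 to 36.8). The collectin gene Colec11 was at 0.413 CPM in cKO-labelled and 1.65 CPM in WT-labelled skin, the scavenger collectin gene Colec12 at 31.2 CPM in cKO-labelled and 28.3 CPM in WT-labelled skin and the lectin pathway protease gene Masp1 at 3.79 CPM in cKO-labelled and 4.77 CPM in WT-labelled skin.

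The gene for factor D was also far lower. Cfd, also an abundant product of fat cells, had 558 counts (38.5 CPM) in the cKO-labelled library and 10638 counts (923 CPM) in the WT-labelled library, 24.0-fold lower (22.0 to 26.2). Relative to the adipocyte markers, themselves at 152 CPM in cKO-labelled and 1729 CPM in WT-labelled skin with 5 of 6 lower by 2-fold, the Cfd ratio was 0.473 (0.429 to 0.521). The part of fat in the Cfd value was not tested. Cfp, the X-linked gene for properdin, was at 96.8 CPM in cKO-labelled and 127 CPM in WT-labelled skin, a ratio of 0.762 (0.708 to 0.820). With Cfd and Cfp among the alternative genes and C1rb, C1s1, C1s2, C4a and C4b among the classical ones, the classical to alternative ratio became 2.70 (2.60 to 2.80), and with Cfd left out of these lists it was 1.47 (1.42 to 1.53).

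Of 10 measured regulators of the cascade, 2 were 2-fold lower and none 2-fold higher on log2 ratios of CPM + 1. Among all measured genes 8.63% were lower and 4.56% higher by this rule. By TMM without the 50 most abundant genes, 1 regulator was higher. Cd55, which encodes decay-accelerating factor, was at 17.6 CPM in cKO-labelled and 41.1 CPM in WT-labelled skin, 2.34-fold lower (2.002 to 2.73). Cd59a, an inhibitor of the membrane attack complex, was at 7.24 CPM in cKO-labelled and 14.3 CPM in WT-labelled skin, and Clu, for the fluid-phase inhibitor clusterin, at 67.7 CPM in cKO-labelled and 121 CPM in WT-labelled skin, both lower without passing the rule of size. Serping1, the gene for the C1 inhibitor, was at 165 CPM in cKO-labelled and 183 CPM in WT-labelled skin. Cr1l, which encodes Crry, the membrane regulator of C3 in rodents, was level at 59.1 CPM in cKO-labelled and 58.5 CPM in WT-labelled skin. Susd4 had 18 counts in cKO-labelled and 2 counts in WT-labelled skin, a plain ratio of 7.14 (1.71 to 63.5). At these few counts its log2 ratio of CPM + 1 was 0.93, just short of the rule of size. Cd46, Vtn and Csmd1 were each below 6 CPM.

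Terminal pathway genes were scarce. C6 had 1 count in cKO-labelled and 43 counts in WT-labelled skin, a ratio of 0.0185 (0.000457 to 0.108), C7 had 32 counts in cKO-labelled and 18 counts in WT-labelled skin, and Hc, the gene for C5, had 20 in cKO-labelled and 9 in WT-labelled skin. C8a and C8b were at 0 in both libraries, and C8g and C9 were under the filter. These levels bear on transcripts in skin and not on protein from plasma.

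Other complement receptors were lower or nearly level. Itgam, the alpha chain of complement receptor 3, had 87.2 CPM in cKO-labelled and 285 CPM in WT-labelled skin and was 3.27-fold lower (3.06 to 3.49), though 68.7% of its exon bases are shared with Gm49368. Itgb2, its beta chain, was at 116 CPM in cKO-labelled and 247 CPM in WT-labelled skin, 2.14-fold lower (2.01 to 2.27), and Itgax, the alpha chain of complement receptor 4, was at 12.7 CPM in cKO-labelled and 10.8 CPM in WT-labelled skin. Cd93, a surface protein of endothelial and myeloid cells once described as a C1q receptor, was at 32.7 CPM in cKO-labelled and 93.6 CPM in WT-labelled skin, 2.86-fold lower (2.57 to 3.20). Vsig4, the X-linked gene for a macrophage receptor of C3 fragments, had 0 counts in cKO-labelled and 29 counts in WT-labelled skin and was at least 12.2-fold lower when set at a floor of 3 counts per library. Its exact interval, which also covers the counting error of the WT-labelled library, allowed a ratio of up to 0.108. The second C5a receptor gene, C5ar2, had 22 counts in cKO-labelled and 38 counts in WT-labelled skin, a ratio of 0.460 (0.259 to 0.797), and Cr2 was at 0 in both libraries.

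**Figure D4:**
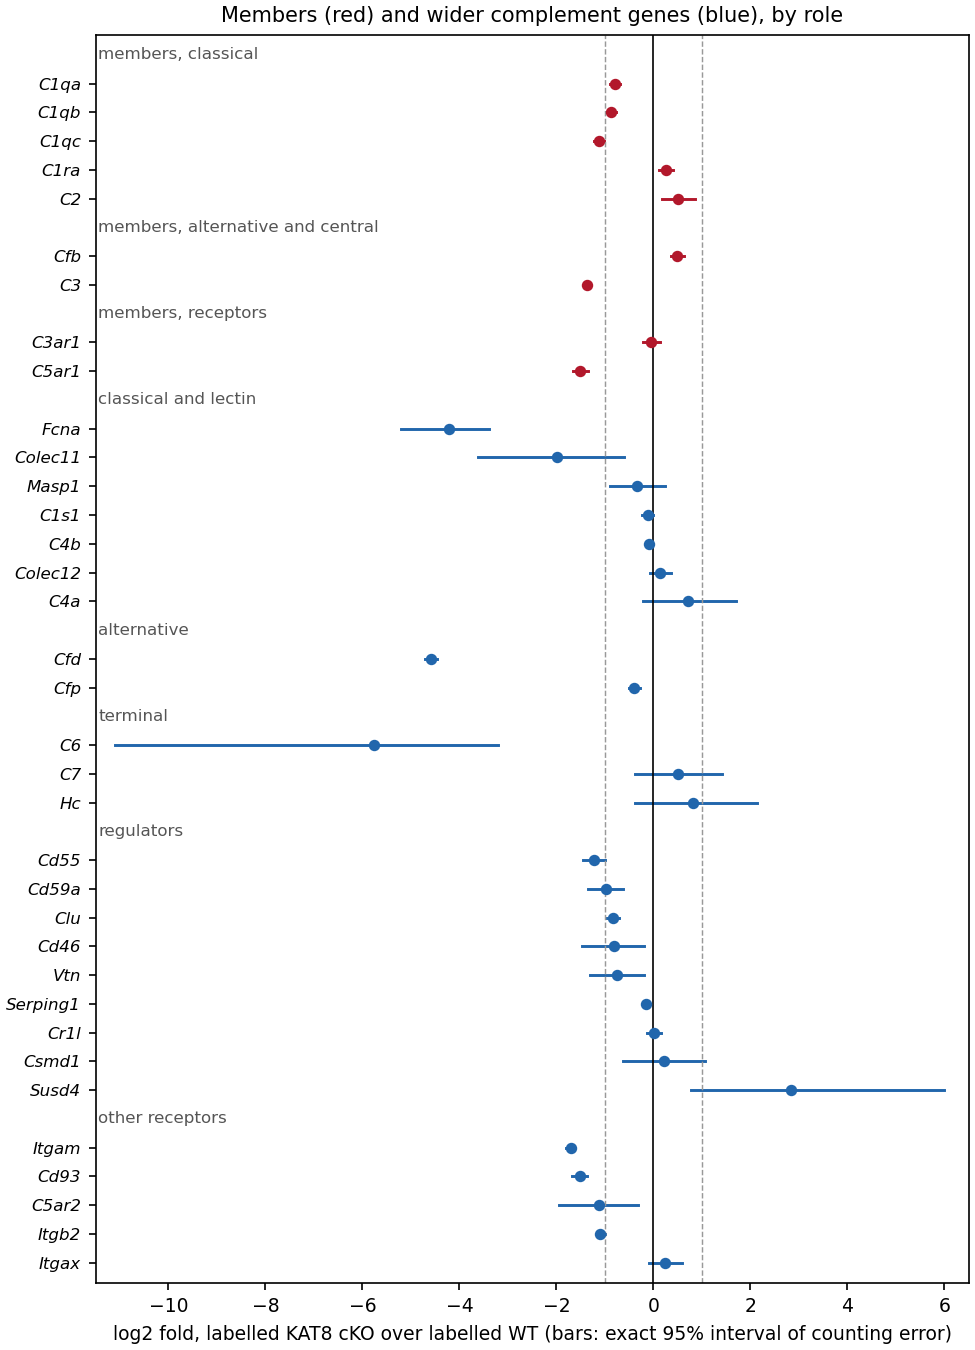
Fold of the library labelled KAT8 cKO over the library labelled WT on a log2 axis for the 9 complement genes in red and for other measured complement genes in blue, by role, with bars for the exact 95% interval of counting error and dashed lines at 2-fold. Cfd, Fcna and C6 lie far to the left of the 9 genes, C6 with 1 count in the library labelled KAT8 cKO and a wide interval. Vsig4, at 0 counts in the library labelled KAT8 cKO, and 1 regulator are not drawn.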

How the data were processed

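The authors deposited 1 table of raw counts, whole numbers per Ensembl gene. Per the submitters' processing notes, the tools were HISAT2, StringTie 1.3.0 and edgeR and the build was mm10, with no role for each. The counting tool, its annotation and its use of strand were not given in the sources used here. Symbols, coordinates and exon lengths came from GENCODE M21 (GRCm38). A symbol was found for 34267 genes, and the rest held 0.0968% of counts in the cKO-labelled library and 0.103% in the WT-labelled library. Library totals were scaled by TMM factors (edgeR 4.0.16 in R 4.3.3) of 1.06 for the cKO-labelled and 0.946 for the WT-labelled library, which made 1 count 0.0689 CPM in the cKO-labelled and 0.0868 CPM in the WT-labelled library. A gene was measured at 1 CPM or more in either library. The rule of size used log2((CPM + 1)/(CPM + 1)), cKO-labelled over WT-labelled, which understates differences of low genes. Folds are plain CPM ratios with Clopper-Pearson 95% intervals, and ratios of ratios have exact conditional intervals (scipy 1.17.1). No molecular identifiers are mentioned in the labels, so intervals and floors cover counting error only and treat PCR copies as separate reads. The calculations were tested on simulated data. The 9 genes, the other lists and the naming rule (all 9 genes, and other complement genes that were measured) were chosen with earlier results of these data known. 1 regulator and 1 macrophage marker enter the counts and sums of their lists but are not reported here by name. Other scalings, pseudocounts, filters and sums were tried.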

Additional observations from a re-analysis of the deposited data

How the results depend on the processing

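No paired analysis was possible because each label has 1 library, and for the same reason no library could be left out. Over 6 changes of scaling or pseudocount, 53 of 54 values of the 9 genes kept their sign, the exception being C3ar1. A pseudocount cannot turn a sign, so only the changes of scaling could have done so. Outside these changes, adding the counts of Gm20547 turned the C2 log2 ratio from 0.47 to -0.38. The count of genes 2-fold lower, 3 as reported, stood beside 8.63% of all measured genes. It became 2 with library totals, beside 1056 of 15221 measured genes, and 5 with a 1.5-fold rule, beside 17.2%. The median log2 ratio of -0.78 was -0.62 with library totals and, chosen after seeing the data, -0.41 without C3. The ratio of C1q to C3 across libraries, 1.36 as reported, was 1.499 for C1qa alone, 1.19 for C1qc alone and 1.12 over C3 and Cfb. That of classical to alternative genes, 1.295, was 2.70 with widened lists, 1.47 with those lists without Cfd, an alternative added after seeing the data, and turned round to 0.434 over Cfb alone and to 0.551 over Cfb and Gm20547, the last an added alternative. Added alternatives also gave 2.87 in place of 3.64 for Cfb over C3 with Gm20547 summed into Cfb. Against macrophage markers, C1q went from 0.696 to 0.598 without Cd163, Lyve1 and Folr2, 0.481 over Csf1r, 0.556 over Adgre1 and 0.590 over Mrc1. Over Cd68 it was 1.07, with an interval (0.956 to 1.19) that covered 1. Apart from the scaling and the rule of size, these shifts come from which genes enter each sum. Depth limits C1rb, C6, Susd4 and Vsig4, each at 3 counts or fewer in a library.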

Other observations

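The C1q/TNF family, secreted proteins that share the globular domain of C1q without being complement components, was looked up after the other values had been seen. Of 9 genes measured, 1 was 2-fold higher and 1 lower, with a median log2 ratio of -0.33, beside 4.56% higher and 8.63% lower over all measured genes. C1qtnf12, which encodes the adipokine adipolin, had 1070 counts in the cKO-labelled library and 349 in the WT-labelled library, a ratio of 2.43 (interval 2.16 to 2.75). C1qtnf9 had 27 counts in cKO-labelled and 122 counts in WT-labelled skin and was 5.69-fold lower (3.73 to 8.99), and C1qtnf1 was at 27.3 CPM in cKO-labelled and 16.1 CPM in WT-labelled skin. Among carboxypeptidase genes, whose enzymes trim C3a and C5a, Cpm was at 19.2 CPM in cKO-labelled and 30.0 CPM in WT-labelled skin and Cpn1 had 17 counts in cKO-labelled and 8 counts in WT-labelled skin, while Cpn2 and Cpb2 were at 0 in both libraries.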
